A study of Caenorhabditis elegans with 6 samples.

Results

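The nuclear hormone receptor genes of *C. elegans* are the genes named *nhr* followed by a number. Members were found by that name pattern, after the sequence name of each probe had been mapped to its current symbol. The array carried 280 such genes with 458 probes, among 20270 named genes and 43603 probes in all. 13 of the 280 are annotated as pseudogenes, and *nhr-151*, *nhr-161* and *nhr-291*, 3 of the 283 in the annotation, had no probe. RNA came from pooled whole hermaphrodites of N2, the wild-type strain, collected after 24 h that began at L4, the last larval stage. The treated worms received pRJ-Fr.5, the fraction of protease-treated royal jelly that methanol in water eluted from a reversed-phase column, and the control worms received none (0). The dose is 25 mg/ml in the labels, although the methods state it in µg/ml. Each group had 3 arrays, all of a single color, and all worms shared the strain, the stage and the time. The labels do not say whether the replicates were separate cultures, and p-values then measure only the spread between these samples, which may be technical.

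Nuclear hormone receptors are transcription factors that bind DNA through zinc fingers, and many switch genes on or off when a small lipid-like ligand occupies their other domain. The worm genome holds far more of them than the genomes of insects or mammals, mainly because 1 ancestral receptor related to mammalian HNF4 was duplicated many times. A minority have clear counterparts in other animals. Known duties in worms include molting (*nhr-23*, *nhr-25*), fat metabolism and the fasting response (*nhr-49*, *nhr-80*), detoxification (*nhr-8*) and embryonic development (*nhr-2*), whereas most of the expanded set have no assigned function.

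Values are log2 of the processed spot intensity relative to the 75th percentile of the array, averaged over the probes of a gene that were well above background on all 6 arrays. A change is the mean of the pRJ-Fr.5 arrays minus the mean of the control arrays, given with its standard error (SE). It was tested in limma, whose linear model borrows information on the spread from all genes, with Benjamini-Hochberg adjustment over the 16060 genes that had a value and a threshold of 0.05. The arrays lay on 2 slides, of which slide 1 held 2 arrays of each group and slide 2 held 1 of each. Between 32824 and 34361 probes were well above background on the pRJ-Fr.5 arrays, against 27932 to 34553 on the control arrays, where the lowest was control replicate 3. Control replicate 3 also had the widest spread of negative control spots, with an SD of 7.14 in intensity, against 0.376 to 3.76 elsewhere. No spot was saturated. The markers chosen for intestine, epidermis, body muscle, neurons and germline were all measured in these whole worms, and of 5 embryonic markers *end-1* and *med-1* were not. In limma, 0 of 6 epidermal, 0 of 4 muscle, 0 of 5 neuronal and 0 of 5 germline markers passed the adjusted threshold, while 2, 0, 1 and 1 of them had an unadjusted p under 0.05, and the methods' t-test after adjustment called 0, 0, 1 and 1. The epidermal list includes *nhr-25*. In such bulk RNA, fewer cells of a type and less RNA per cell cannot be told apart.

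With pRJ-Fr.5, the receptor genes shifted little: 29 of the 174 with a value passed the threshold (16.7%), against 29.8% of all genes. Of these, 20 were up-regulated and 9 were down-regulated. The share that rose (11.5%) was near that of all genes (10.7%), whereas the share that fell (5.17%) was below it (19.1%). At an unadjusted p under 0.05 in limma there were 54 receptor genes, against 43.9% of all genes. In 69 receptor genes (39.7%), the pRJ-Fr.5 arrays were all above or all below the control arrays, against 49.7% of all genes. On average 63.8% of the receptor genes were higher with pRJ-Fr.5, against 54.4% of all genes. The median log2 fold change was 0.08 over the receptor genes, with quartiles of -0.06 and 0.20, and 0.03 over all genes, with quartiles of -0.21 and 0.17. A log2 change of 0.5 or more in size was seen in 12 receptor genes (6.90%) and in 19.1% of all genes, and 4 receptor genes were called and changed by at least 1.8-fold (2.30%, against 2.53% of all genes). No test of the family as a whole was made, so that these shares are descriptions.

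**Figure D1:**
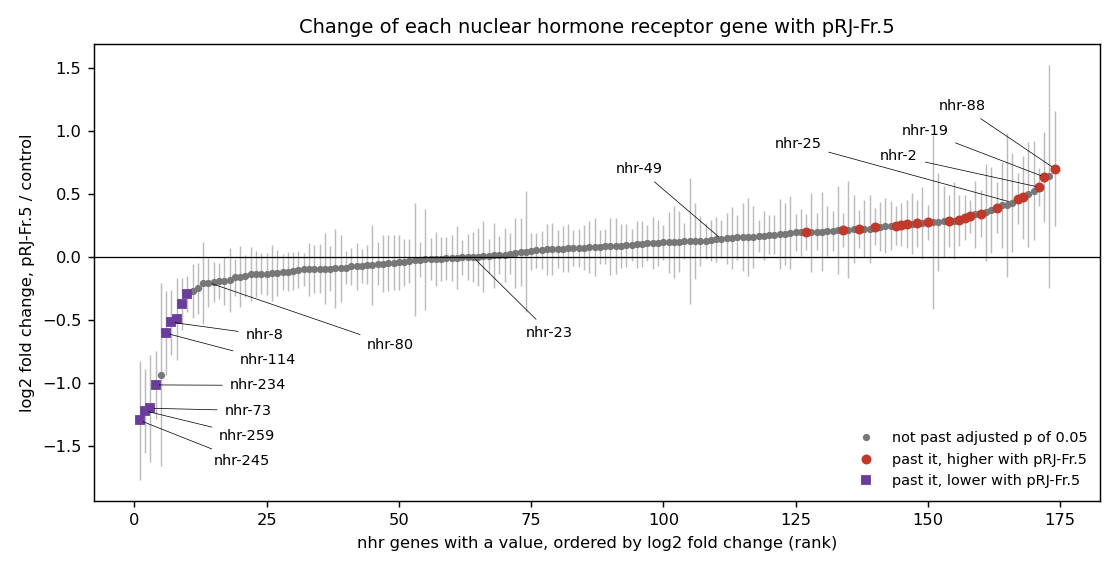
Log2 fold change (pRJ-Fr.5 over control) of the 174 *nhr* genes with a value, ordered from lowest to highest. Points are limma estimates from 3 arrays a group, grey lines are 95% confidence intervals, and colored points passed the adjusted threshold. Changes run from -1.30 for *nhr-245* to 0.70 for *nhr-88*, most lie within 0.5 of 0, and the 4 largest decreases stand further from 0 than any increase.

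The count depended on single arrays. Without pRJ-Fr.5 replicates 1, 2 and 3 it was 50 (38 up, 12 down), 7 (3 up, 4 down) and 20 (9 up, 11 down). These were 28.7%, 4.02% and 11.5% of the receptor genes, against 34.3%, 17.1% and 24.1% of all genes. Without control replicates 1, 2 and 3 the count was 14 (7 up, 7 down), 8 (3 up, 5 down) and 11 (5 up, 6 down). As shares these were 8.05%, 4.60% and 5.31%, against 19.3%, 18.8% and 18.2% of all genes. Within slide 1 alone the count was 10 (4 up, 6 down), or 5.75%, against 20.7% of all genes. The median receptor gene stood 0.01, 0.09 and 0.15 above its control mean in pRJ-Fr.5 replicates 1, 2 and 3. Over all genes the median stood 0.014, 0.026 and 0.021 above it in the same arrays. Among the 29 called receptor genes, pRJ-Fr.5 replicate 1 was the treated array nearest to the control in 22 (75.9%), and it was so in 68.2% of the called genes of the whole array. In each of the 18 alternative analyses with a test, the share of receptor genes called was lower than the share of all genes called, and so was the share called down-regulated. The share called up-regulated was lower than that of all genes in 12 of the 18. The 18 include a fit in which detection on every array of either group was enough. Some genes entered that fit only through the group in which they were high.

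**Figure D2:**
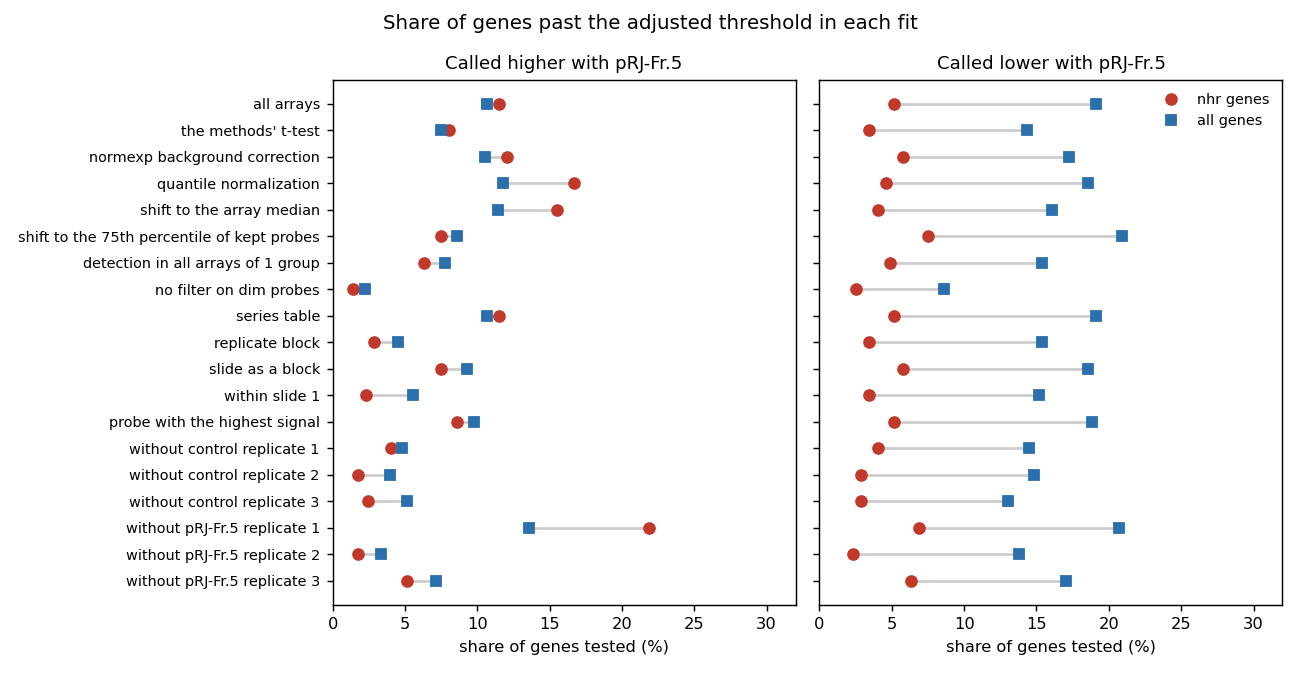
Share of genes tested, in percent, that passed the adjusted threshold in the analysis of all arrays and in 18 alternatives with a test, for *nhr* genes (circles) and all genes (squares). In the right panel, decreases, the circle lies left of the square in every row. In the left panel, increases, the order varies, and the analysis without pRJ-Fr.5 replicate 1 has the highest share for both. The row with detection in 1 group includes genes that entered only through the group in which they were high.

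The 4 strongest decreases were in receptor genes with no role in the lists used here, and all 4 fell by more than 1.8-fold. The signal of *nhr-245* was -3.13, -3.54 and -3.96 with pRJ-Fr.5, against -2.12, -2.32 and -2.29 in the control. All treated arrays of *nhr-245* were below all control arrays, and its log2 fold change was -1.30 (SE 0.20, limma adjusted p = 0.0039), or 2.46-fold lower. *nhr-259* gave -3.32, -3.51 and -3.84 with pRJ-Fr.5 and -2.19, -2.43 and -2.38 in the control. Again no value overlapped, with a change of -1.22 (SE 0.14, limma adjusted p = 0.0021). *nhr-73* gave -2.33, -2.57 and -3.06 with pRJ-Fr.5 and -1.36, -1.48 and -1.51 in the control. Its groups stood apart by more than the range within either, and the change was -1.20 (SE 0.18, limma adjusted p = 0.0035). *nhr-234* gave -5.005, -5.24 and -5.43 with pRJ-Fr.5 and -4.27, -4.21 and -4.15 in the control, with a change of -1.02 (SE 0.11, limma adjusted p = 0.0020). In all 4 genes the treated arrays were spread more widely than the control arrays, with replicate 1 closest to the control. Each of the 4 passed the threshold in all 18 alternatives with a test, although the change of *nhr-234* was -0.52 with the normexp background correction.

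**Figure D3:**
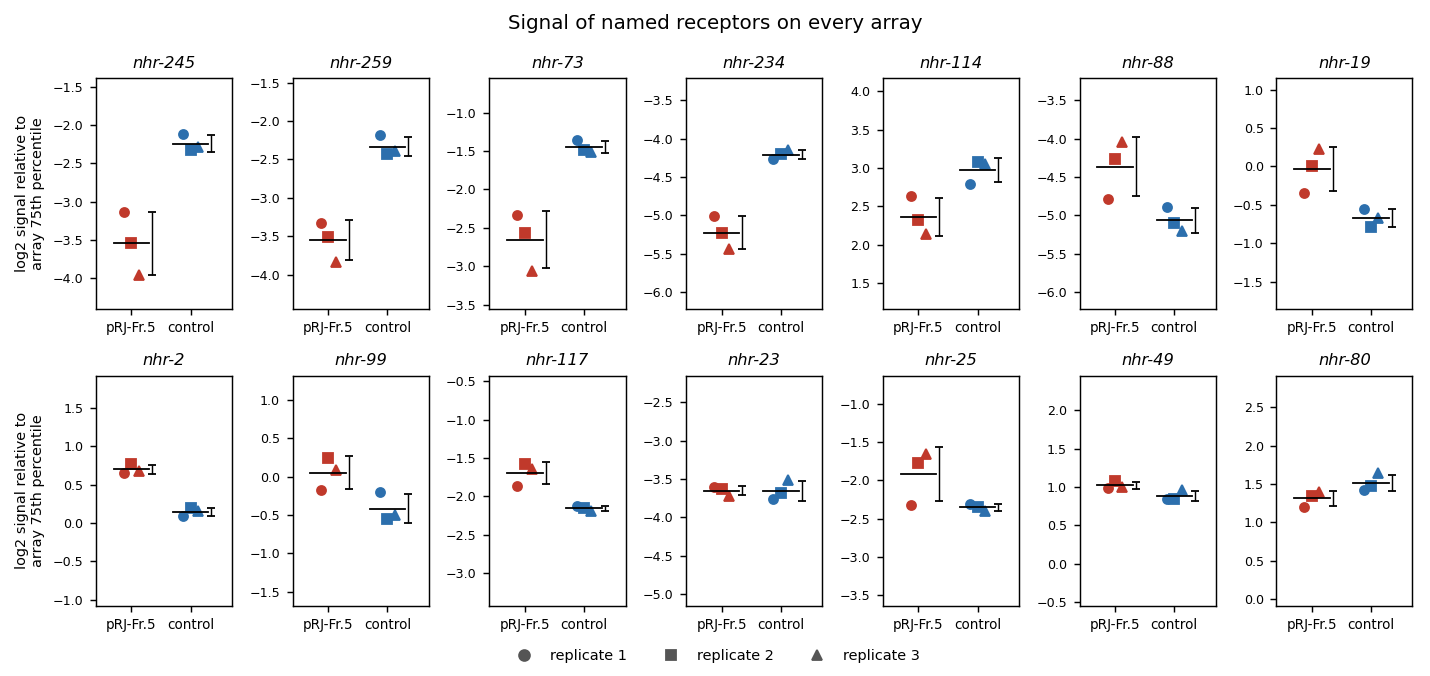
Log2 signal relative to the 75th percentile of the array for 14 *nhr* genes, the 5 largest decreases, the 5 largest increases and the 4 receptors of molting and metabolism, on every array. Symbols mark replicates, horizontal lines are means and brackets are ± 1 SD (n = 3 a group), with pRJ-Fr.5 at left and control at right in each panel. The groups are apart in the first 10 genes, overlap in *nhr-23* and *nhr-25*, and are close together in *nhr-49* and *nhr-80*.

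3 of these 4 genes lie close together on chromosome I, in a stretch picked with its values in view. In the order of the RefSeq annotation of WBcel235, 27 genes, 12 of them protein-coding, run from *nhr-74* to *nhr-245*, and 6 of them are *nhr* genes. The 4 *nhr* genes with a value were *nhr-74*, *nhr-73*, *nhr-259* and *nhr-245*. *nhr-74* gave -1.63, -2.14 and -2.96 with pRJ-Fr.5 and -1.27, -1.39 and -1.27 in the control. Its groups did not overlap, but the treated arrays differed so much that its change of -0.93 did not pass (SE 0.31, limma adjusted p = 0.060). Of the 7 other genes of the stretch with a value, 5 fell and 2 did not pass the threshold, with a median change of -1.50. The 5 were *ZK1025.2* (-1.50), *ZK1025.5* (-1.59), *gtnt-53* (-1.69), *ZK1025.3* (-1.47) and *bah-1* (-1.58), the last named for worms whose heads escape bacterial biofilm. *C27C7.1* and *ZK1025.1*, which lie between *nhr-259* and these genes, changed by 0.13 and -0.11. Among the 10 genes with a value on the *nhr-74* side, 2 fell and 1 rose, with a median of 0.14. Among the 10 on the *nhr-245* side, 5 fell, the most by 0.68, with a median of -0.39.

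The remaining *nhr* genes of the stretch, *nhr-113* and *nhr-244*, were left out by the detection filter because of control replicate 3 alone. When detection on every array of either group was enough, *nhr-113*, the direct neighbour of *nhr-245*, gave -6.53, -6.77 and -7.28 with pRJ-Fr.5 and -5.30, -5.85 and -5.81 in the control. It was lower on every treated array (change -1.20, SE 0.24, limma adjusted p = 0.016 in this fit). *nhr-234* also has a receptor gene beside it, *nhr-235*, which in the same fit gave -6.08, -6.74 and -7.11 with pRJ-Fr.5 and -5.78, -5.39 and -6.07 in the control. Its groups did not overlap, but it did not pass (change -0.90, limma adjusted p = 0.073). *nhr-113* and *nhr-235* were picked as neighbours from the 32 receptor genes that the looser filter added. Both were dim, and neither had a value in the normexp alternative. Whether probes of neighbouring receptor genes share signal through similar sequences was not tested.

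**Figure D4:**
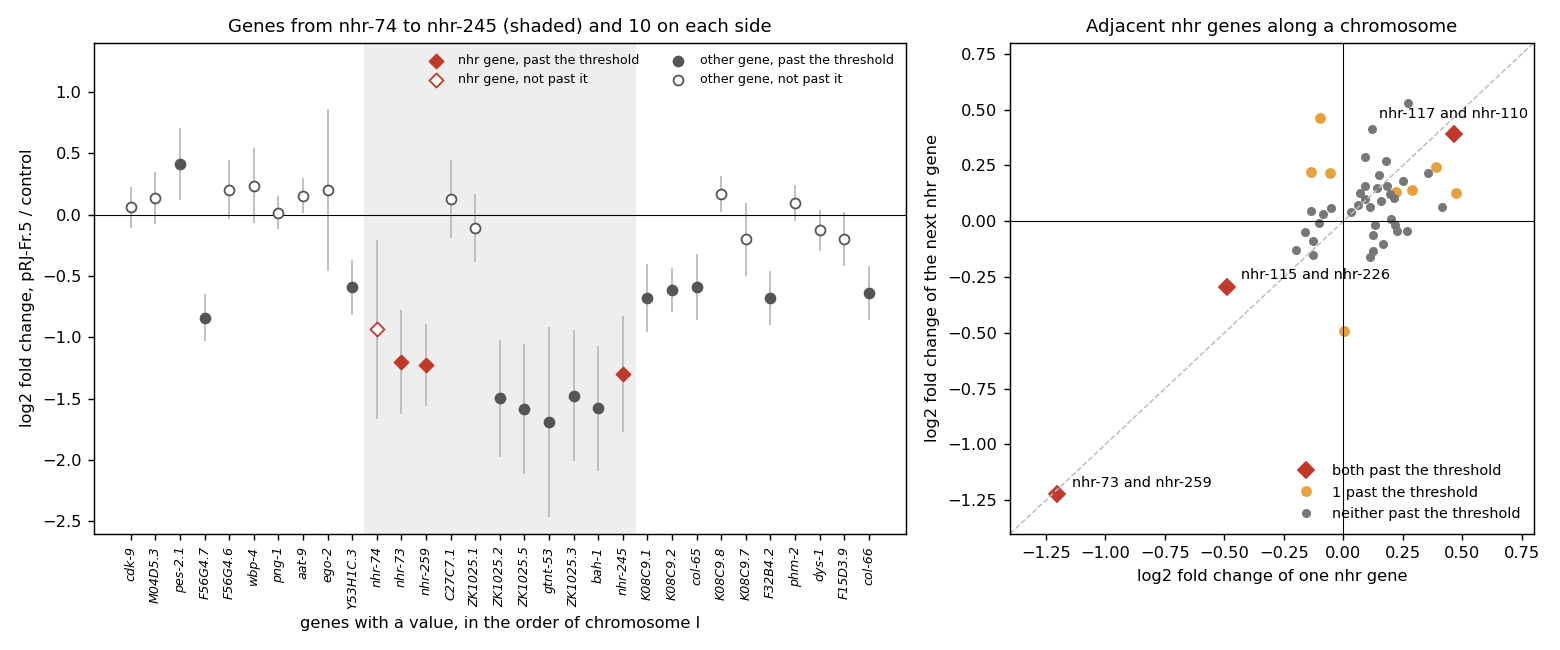
Left, log2 fold change (pRJ-Fr.5 over control, 95% confidence interval) of genes with a value in their order on chromosome I, from *nhr-74* to *nhr-245* (shaded) and 10 on each side, with *nhr* genes as diamonds and filled symbols past the adjusted threshold. Right, log2 fold change of each *nhr* gene against that of the next *nhr* gene, for 47 pairs with no other protein-coding gene or pseudogene between them. The shaded genes lie mostly between -1.69 and -0.93, with *C27C7.1* and *ZK1025.1* near 0, and the 3 pairs with both members called lie near the dashed line of equal change.

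Side-by-side receptor genes are common in the worm genome. With genes of noncoding RNA left aside, 144 of the 283 annotated receptor genes stood in 47 runs of immediate neighbours, 34 of these runs on chromosome V and the longest with 8 members. In 47 pairs of neighbours both genes had a value, and the median size of the difference between their changes was 0.12, against 0.20 over all pairs of receptor genes. These sets are unlike, because most of the 47 pairs lay on chromosome V, where a smaller share of receptor genes was called than elsewhere. Pairs of the same chromosome that are not neighbours were not compared. Both genes passed the threshold in 3 of the 47 pairs, each in the same direction. These were *nhr-73* and *nhr-259*, *nhr-115* and *nhr-226*, which fell (-0.49 and -0.29), and *nhr-117* and *nhr-110*, which rose (0.46 and 0.39). Chromosome V carried 173 of the 280 receptor genes. There 9 of 112 rose and 3 fell (10.7% called, against 29.6% of all genes of that chromosome). On the other chromosomes 11 of 62 rose and 6 fell (27.4% called, against 31.3% of all genes there). The neighbours and chromosomes were looked at after the values had been seen, and no test of them was made.

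The other 5 decreases were smaller, and 3 of them have known roles. *nhr-114*, an intestinal receptor of the HNF4 type that protects the germline when the diet is poor in vitamin B12, gave 2.63, 2.32 and 2.14 with pRJ-Fr.5 and 2.79, 3.08 and 3.05 in the control. Every treated array was lower, with a change of -0.61 (SE 0.14, limma adjusted p = 0.020). *nhr-8*, a relative of the dauer receptor that acts in resistance to toxins and in sterol metabolism, averaged -1.71 ± 0.13 with pRJ-Fr.5 and -1.19 ± 0.17 in the control (SD, n = 3 each). It fell by 0.52 (SE 0.11, limma adjusted p = 0.0135), and all 4 of its probes were lower and passed the threshold singly. *nhr-31*, needed for growth of the tubule of the excretory cell, averaged -2.45 ± 0.15 with pRJ-Fr.5 and -2.08 ± 0.02 in the control (SD, n = 3 each), a change of -0.37 (SE 0.09, limma adjusted p = 0.019). *nhr-115* (-0.49, limma adjusted p = 0.037) and *nhr-226* (-0.29, limma adjusted p = 0.0127) completed the decreases. Of the 18 alternatives with a test, *nhr-114* lost its call in 7, *nhr-8* in 4, *nhr-31* in 7, *nhr-115* in 11 and *nhr-226* in 5. In the methods' t-test the adjusted p was 0.079 for *nhr-114*, 0.057 for *nhr-8*, 0.057 for *nhr-31* and 0.110 for *nhr-115*. With pRJ-Fr.5 replicate 2 left out, the adjusted p was 0.072 for *nhr-114*, 0.056 for *nhr-8*, 0.075 for *nhr-31*, 0.098 for *nhr-115* and 0.065 for *nhr-226*. With control replicate 3 left out it was 0.076, 0.055, 0.066, 0.107 and 0.051 for the same genes in that order. *nhr-114*, *nhr-31*, *nhr-115* and *nhr-226* also lost the call without control replicate 2 (0.071, 0.061, 0.096 and 0.059), and *nhr-31* and *nhr-115* without control replicate 1 (0.064 and 0.097). Of 5 intestinal markers, 3 moved the same way as *nhr-114* and passed in limma: *pept-1*, *act-5* and *ifb-2* fell by 0.52, 0.42 and 0.22. *elt-2* and *ges-1* changed by -0.05 and 0.06 without passing. The methods' t-test called 1 of the 5 after adjustment. The mean level of the 5 intestinal markers was 1.74 to 1.86 with pRJ-Fr.5 and 1.95 to 2.06 in the control, and its part in the change of *nhr-114* was not tested.

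*nhr-2* and *nhr-181* were the increases that passed the threshold in all 18 alternatives with a test. *nhr-2* encodes a receptor that is switched on early in the embryo and is needed for embryonic development. Its signal was 0.65, 0.77 and 0.67 with pRJ-Fr.5 and 0.09, 0.19 and 0.15 in the control. The gap between the groups was several times the range within either, and the change was 0.55 (SE 0.06, limma adjusted p = 0.0021). In those alternatives its change was 0.52 to 0.60. Embryonic markers rose as well: *pes-10* by 0.66 (limma adjusted p = 0.0021) and *end-3* by 0.44 (limma adjusted p = 0.0049), while *skn-1* changed by 0.22 (limma adjusted p = 0.108). The mean of these 3 of the 5 embryonic markers was -2.32 to -2.16 with pRJ-Fr.5 and -2.77 to -2.59 in the control. Its part in the change of *nhr-2* was not tested. *nhr-181* rose by 0.32 (SE 0.05, limma adjusted p = 0.0058).

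The other 4 of the 5 largest increases were those of *nhr-88*, *nhr-19*, *nhr-99* and *nhr-117*, for which the lists used here give no role. *nhr-88* gave -4.79, -4.26 and -4.05 with pRJ-Fr.5 and -4.89, -5.10 and -5.21 in the control. This dim gene rested on 3 of its 11 probes, of which 2 passed the threshold singly. Only its replicate 1 came near the control range, and the change was 0.70 (SE 0.19, limma adjusted p = 0.035). It was 0.41 with the normexp background correction and 1.16 within slide 2, and the call was lost in 12 of the 18 alternatives with a test. *nhr-19* gave -0.34, 0.01 and 0.23 with pRJ-Fr.5 and -0.55, -0.79 and -0.67 in the control, with a change of 0.64 (SE 0.15, limma adjusted p = 0.020). Here too replicate 1 was the lowest treated array. *nhr-99* gave -0.17, 0.25 and 0.09 with pRJ-Fr.5 and -0.20, -0.55 and -0.50 in the control. Replicate 1 of both groups almost met, and the change was 0.47 (SE 0.14, limma adjusted p = 0.042). *nhr-117* gave -1.86, -1.58 and -1.64 with pRJ-Fr.5 and -2.13, -2.15 and -2.19 in the control, with a change of 0.46 (SE 0.09, limma adjusted p = 0.0081). *nhr-117* lost its call in 1 alternative, within slide 1 (limma adjusted p = 0.059). *nhr-99* lost its call with the slide as a block (limma adjusted p = 0.061), and the methods' t-test gave an adjusted p of 0.114 for *nhr-88*, 0.081 for *nhr-19* and 0.118 for *nhr-99*. These 3 also lost their calls when some single arrays were left out: without pRJ-Fr.5 replicate 2 the adjusted p was 0.112 for *nhr-88*, 0.072 for *nhr-19* and 0.132 for *nhr-99*, and without control replicate 3 it was 0.171, 0.071 and 0.125. It was 0.098, 0.072 and 0.128 without control replicate 2. *nhr-88* also lost the call without control replicate 1 (0.0625), and *nhr-88* and *nhr-99* without pRJ-Fr.5 replicate 3 (0.073 and 0.094).

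Next in size were *nhr-110* (0.39, limma adjusted p = 0.016), *nhr-4* (0.35, 0.0176), *nhr-61* (0.31, 0.020) and *nhr-101* (0.29, 0.043). Each of these 4 lost its call without control replicate 2 (adjusted p of 0.061, 0.071, 0.077 and 0.096), without control replicate 3 (0.056, 0.057, 0.065 and 0.120) and without pRJ-Fr.5 replicate 2 (0.069, 0.072, 0.080 and 0.139). *nhr-110*, *nhr-61* and *nhr-101* also lost it without control replicate 1 (0.052, 0.059 and 0.069), and *nhr-101* without pRJ-Fr.5 replicate 3 (0.102). The other 10 increases lay between 0.20 and 0.29, namely *nhr-12*, *nhr-13*, *nhr-17*, *nhr-46*, *nhr-48*, *nhr-71*, *nhr-120*, *nhr-122*, *nhr-212* and *nhr-256*. Each of these 10 lost its call in some of the 18 alternatives with a test, from 3 for *nhr-71* to 14 for *nhr-17*, *nhr-48*, *nhr-120* and *nhr-122*. In all 29 called receptor genes, the groups did not overlap, against 49.7% of all genes tested, called or not. A call with 3 arrays a group favours genes whose groups stand apart, so this adds no support to the calls.

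The molting receptors did not pass the threshold in limma, where 1 of the 2 had an unadjusted p under 0.05, or in the methods' t-test (0 at either level). *nhr-23*, which drives each larval molt, gave -3.60, -3.63 and -3.72 with pRJ-Fr.5 and -3.76, -3.68 and -3.51 in the control. The groups overlapped throughout, with a change of 0.00 (95% confidence interval -0.20 to 0.20, limma adjusted p = 0.999) whose sign changed between processing alternatives. Its 8 probes with a value changed by -0.31 to 0.09, and 0 of them passed the threshold. *nhr-25*, which acts in the epidermis, in molting and in vulval and gonadal development, gave -2.32, -1.78 and -1.66 with pRJ-Fr.5 and -2.30, -2.35 and -2.40 in the control. pRJ-Fr.5 replicate 1 lay within the control range, and replicates 2 and 3 lay above it. The change was 0.43 (SE 0.17, 95% confidence interval 0.04 to 0.83, limma adjusted p = 0.092), and its 3 probes gave 0.29 to 0.50. Without pRJ-Fr.5 replicate 1 it was 0.63, past the threshold (limma adjusted p = 0.0020). That fit called more genes over the whole array, 34.3% against 29.8% with all arrays.

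Of 6 genes known to depend on these receptors in molting, 2 fell and 4 did not pass, while 19.1% of all genes fell. *mlt-10*, which encodes a secreted protein of the molting epidermis, gave -0.17, -0.35 and -0.56 with pRJ-Fr.5 and 0.90, 0.86 and 0.82 in the control (change -1.22, SE 0.10, limma adjusted p = 0.0020). *mlt-8* gave 0.00, 0.04 and 0.14 with pRJ-Fr.5 and 0.95, 0.89 and 0.61 in the control (change -0.76, SE 0.10, limma adjusted p = 0.0026). Both were lower on every treated array. *mlt-11* (-0.37), *noah-1* (0.01), *noah-2* (-0.01) and *nas-37* (0.15) did not pass.

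Of 11 receptors of fat and fuel metabolism, 1 was called higher, 1 was called lower and 9 did not pass. Over all genes, 10.7% were called higher and 19.1% lower. *nhr-49*, a regulator of fatty acid desaturation, beta-oxidation and the fasting response, gave 0.99, 1.07 and 1.00 with pRJ-Fr.5 and 0.85, 0.84 and 0.96 in the control. All treated arrays were the higher ones, but by only 0.14 on average (95% confidence interval -0.01 to 0.29, limma adjusted p = 0.127). *nhr-80*, which promotes oleic acid synthesis and long life in worms without a germline, gave 1.21, 1.34 and 1.39 with pRJ-Fr.5 and 1.43, 1.48 and 1.64 in the control. All treated arrays were the lower ones, and the change of -0.20 did not pass (95% confidence interval -0.40 to 0.00, limma adjusted p = 0.108). *nhr-13*, a partner of *nhr-49* and *nhr-80*, was the called increase, with 0.81, 0.77 and 0.69 with pRJ-Fr.5 and 0.47, 0.52 and 0.56 in the control. Its change of 0.24 (SE 0.06, limma adjusted p = 0.028) was not past the threshold with any array but pRJ-Fr.5 replicate 3 left out, at an adjusted p of 0.087, 0.090 and 0.061 without control replicates 1, 2 and 3, and of 0.055 and 0.106 without pRJ-Fr.5 replicates 1 and 2. *nhr-114* was the called decrease. *nhr-66*, the partner of *nhr-49* for genes of sphingolipid breakdown, changed by 0.20 (limma adjusted p = 0.051) and *nhr-64* by 0.25 (limma adjusted p = 0.083). For *nhr-64* the limma adjusted p was 0.030 without pRJ-Fr.5 replicate 1, a fit that called 34.3% of all genes, against 29.8% with all arrays. The 5 others, *nhr-10*, *nhr-62*, *nhr-68*, *nhr-69* and *nhr-76*, changed by 0.13, 0.08, -0.13, 0.19 and -0.10.

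**Figure D5:**
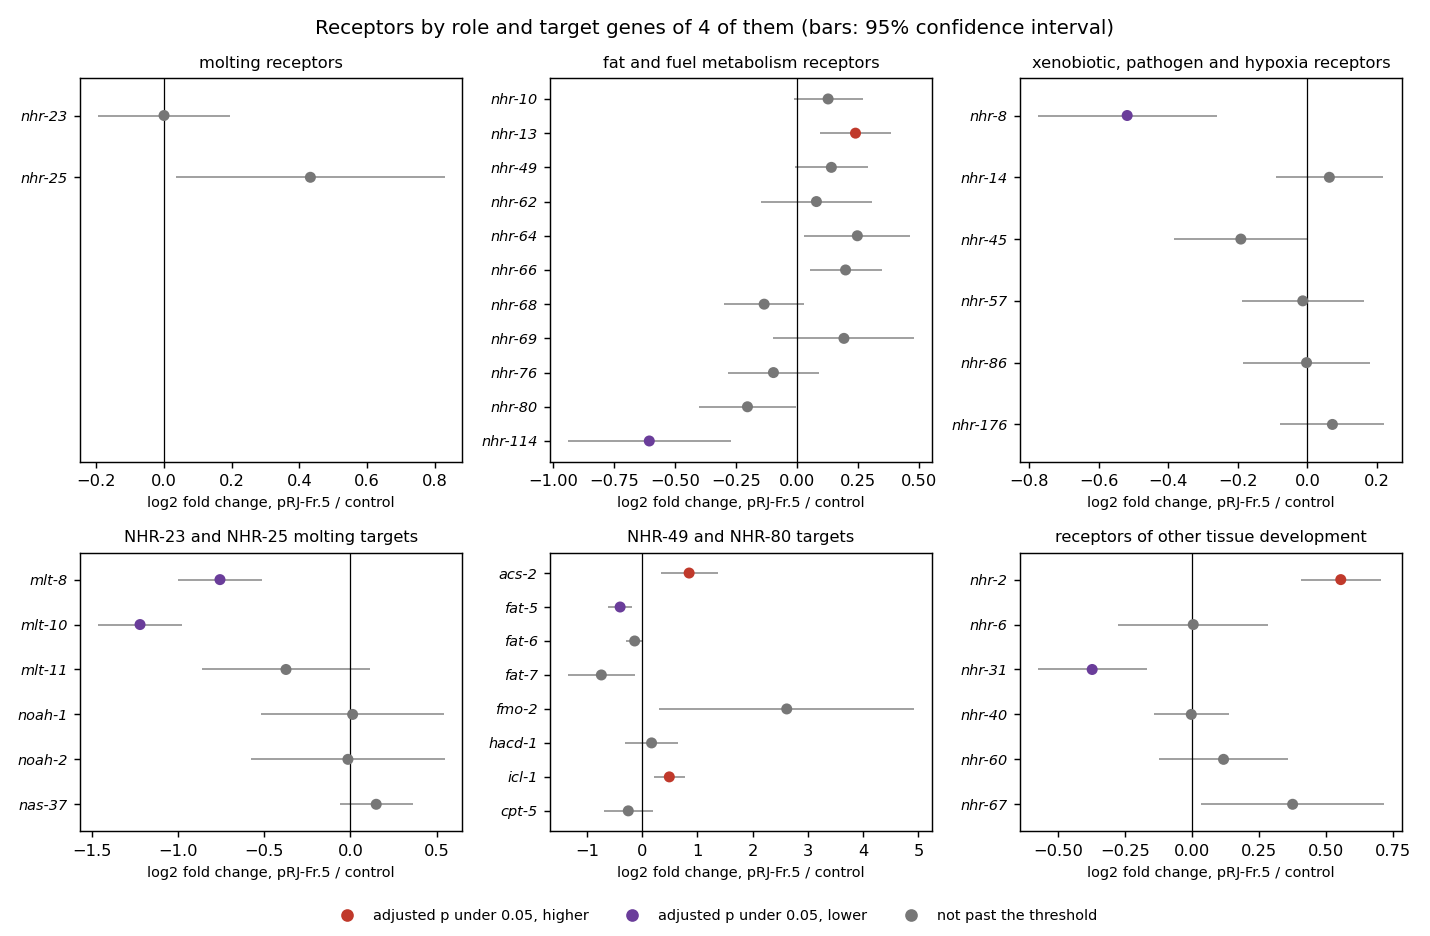
Log2 fold change (pRJ-Fr.5 over control, 3 arrays each) with 95% confidence interval for *nhr* genes grouped by role and for target genes of the molting and the fat metabolism receptors; the horizontal scale differs between panels. Colored points passed the adjusted threshold. *nhr-13* and *nhr-2* rose, *nhr-114*, *nhr-8* and *nhr-31* fell, and among targets *acs-2* and *icl-1* rose while *fat-5*, *mlt-8* and *mlt-10* fell.

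Of 8 targets of *nhr-49* and *nhr-80*, 2 rose, 1 fell and 5 did not pass in limma. Over all genes, 10.7% rose and 19.1% fell. The methods' t-test called 0 of the 8 targets after adjustment and 4 before it. *acs-2*, an acyl-CoA synthetase for beta-oxidation, gave 2.15, 2.26 and 2.96 with pRJ-Fr.5 and 1.59, 1.46 and 1.78 in the control (change 0.85, SE 0.22, limma adjusted p = 0.028). *icl-1*, the enzyme of the glyoxylate cycle, rose by 0.49 (SE 0.12, limma adjusted p = 0.023). *fat-5*, a desaturase of palmitic acid, gave 2.18, 2.01 and 1.93 with pRJ-Fr.5 and 2.38, 2.55 and 2.38 in the control (change -0.40, SE 0.09, limma adjusted p = 0.018). The desaturases *fat-6* and *fat-7* changed by -0.13 and -0.74 (limma adjusted p = 0.147 and 0.070). *fmo-2*, a flavin monooxygenase, gave -2.46, 0.19 and 1.47 with pRJ-Fr.5 and -2.09, -2.87 and -3.69 in the control. Its replicate 1 lay within the control range while the other treated arrays were far above it, so that a mean change of 2.62 did not pass (SE 0.97, limma adjusted p = 0.084). *hacd-1* and *cpt-5* changed by 0.17 and -0.25. None of the 5 targets of *nhr-10* and *nhr-68* in the propionate shunt, *acdh-1*, *ech-6*, *hach-1*, *hphd-1* and *alh-8*, passed in limma or in the methods' t-test (0 at an unadjusted p under 0.05 in both), with changes of -0.18 to -0.02.

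Among 6 receptors of the response to xenobiotics, pathogens and hypoxia, *nhr-8* fell and the other 5 did not pass in limma. Over all genes, 19.1% fell. The methods' t-test called 0 of the 6 receptors after adjustment and 1 before it. *nhr-45*, which acts in the response to toxins of pathogenic bacteria, changed by -0.19 (limma adjusted p = 0.116). *nhr-86*, a sensor of a bacterial metabolite, changed by 0.00, *nhr-57*, a target of the hypoxia factor, by -0.01, *nhr-14*, which acts in iron and immune responses, by 0.06, and *nhr-176*, which acts in the breakdown of thiabendazole, by 0.07. Their mean level over the 6 genes was -1.20 to -1.13 with pRJ-Fr.5 and -1.10 to -1.05 in the control.

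Of 7 receptors of other tissue development, 6 had a value. *nhr-2* rose, *nhr-31* fell and 4 did not pass. These were *nhr-6* (0.00), needed for the spermatheca, *nhr-40* (0.00), of muscle development, *nhr-60* (0.12), of the seam cells, and *nhr-67* (0.38, limma adjusted p = 0.091), of the anchor cell. Without pRJ-Fr.5 replicate 1, *nhr-67* was past the threshold with a change of 0.52 (limma adjusted p = 0.0116). That fit called 34.3% of all genes, against 29.8% with all arrays. *nhr-85*, the counterpart of mammalian Rev-erb, was left out by the detection filter.

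Of 11 receptors with counterparts across animals, 8 had a value, of which 1 rose (*nhr-48*) and 1 fell (*nhr-8*) in limma. The methods' t-test called 0 of the 8 after adjustment and 3 before it, with an adjusted p of 0.088 for *nhr-48*. *nhr-48*, of the group of *nhr-8* and *daf-12*, changed by 0.27 (SE 0.08, limma adjusted p = 0.046) and passed in 4 of the 18 alternatives with a test. Of single arrays, only pRJ-Fr.5 replicate 1 could be left out with the call kept; the adjusted p was 0.109, 0.092 and 0.132 without control replicates 1, 2 and 3, and 0.154 and 0.106 without pRJ-Fr.5 replicates 2 and 3. *nhr-41*, the counterpart of the TR2 and TR4 receptors, changed by -0.27 (limma adjusted p = 0.065, and 0.045 without control replicate 3) and *nhr-91*, the counterpart of mammalian GCNF, by -0.02. *nhr-111* and *nhr-239* were left out by the detection filter. The remaining members of this group are those described above for molting and development. Over the 4 role groups and the conserved group together, 3 of 28 receptor genes with a value rose and 3 fell, with a median change of 0.03. Over the 146 in none of these groups, 17 rose and 6 fell, with a median of 0.09. Of all genes tested, 10.7% rose and 19.1% fell.

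Nuclear receptors outside the *nhr* names were also examined. *sex-1*, which counts X chromosomes in the choice of sex, gave 0.63, 0.85 and 0.84 with pRJ-Fr.5 and 0.31, 0.33 and 0.29 in the control. All treated arrays were above all control arrays, and it rose by 0.47 (SE 0.08, limma adjusted p = 0.0051). *daf-12*, the dauer receptor, changed by -0.13 (limma adjusted p = 0.132), and *fax-1*, *odr-7* and *unc-55* were left out by the detection filter. Of 4 genes of the synthesis of dafachronic acids, the steroid ligands of DAF-12, *daf-9* fell. This cytochrome P450 gave -3.83, -3.85 and -3.97 with pRJ-Fr.5 and -3.51, -3.53 and -3.27 in the control, lower on every treated array (change -0.45, SE 0.09, limma adjusted p = 0.011). *daf-36*, *dhs-16* and *strm-1* changed by -0.54, -0.19 and -0.01 without passing. Of 5 coregulator genes 0 passed the adjusted threshold in limma or in the methods' t-test, and 2 had an unadjusted p under 0.05 in each. In limma these were *mdt-15*, the Mediator subunit that works with *nhr-49* (0.18, limma adjusted p = 0.091), and *ubc-9*, the SUMO-conjugating enzyme (0.18, limma adjusted p = 0.112).

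Different probes of a receptor gene mostly agreed. Of the 174 receptor genes with a value, 124 rested on 1 probe, and among the 50 with more, the range between the changes of their probes had a median of 0.09 and was largest, 0.50, in *nhr-184*. In 12 of the 50 the probes had both signs, and 0 of the 12 called genes with several probes were among these. A call on the mean of the probes favours genes whose probes share a sign, so this 0 does not show agreement.

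The receptor genes without a value divide as follows. In 42, no probe was well above background on any array, 33 were left out by control replicate 3 alone, and 31 had a probe above background on some arrays. 0 receptor genes were well above background on all arrays of 1 group and on none of the other. When a gene needed detection on every array of only 1 group, 32 receptor genes were added. All 32 were well above background on the 3 pRJ-Fr.5 arrays and on at most 2 control arrays. Those that were brighter with pRJ-Fr.5 therefore entered only through the group in which they were high. Of the 32, *nhr-113*, which fell, and *nhr-246* and *nhr-257*, which rose, passed the threshold in that fit. The counts and shares of that alternative include these 3 genes, and the 2 increases are not taken as support.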

How the data were processed

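Per the labels and methods, Cy3-labeled RNA of each sample was hybridized to its own array of the Agilent *C. elegans* (V2) design. The authors deposited spot intensities and quality flags written by Agilent Feature Extraction 10.7.1.1, which subtracts background on each array and leaves differences between arrays in place. They also deposited a table of linear ratios, in which each column has a 75th percentile of 1 and a median of 0.098 to 0.106, and which differed from the intensities divided by that percentile by at most 0.0606.

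Control and outlier spots were dropped, replicate spots were averaged, and intensities were divided by the 75th percentile of their array before log2. Kept probes had both detection flags (positive and significant, well above background) on all 6 arrays, and a gene was the mean of its kept probes. Symbols came from RefSeq (WBcel235) for 80.0% of the probes; the arrays are annotated on another build (ce4), so that no coordinates are given. Sequences of the receptors were not analysed here.

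The comparison used lmFit and eBayes of limma 3.58.1 (R 4.3.3), with Benjamini-Hochberg adjustment over 16060 genes. With 3 arrays a group, the smallest p of an exact permutation test is 0.1, and the number of arrays limits the precision. The test was checked on simulated data.

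Named were *nhr-23*, *nhr-25*, *nhr-49*, *nhr-80*, the members of the role lists, and the 10 largest increases and decreases (of which there were 9) among called genes whose groups did not overlap. Members, lists and tests were chosen with earlier results of these data known. Alternatives were the methods' t-test, the normexp correction (offset 50, on the median signal of a spot), quantile and median normalization, the percentile over kept probes, looser and no detection filters, the table of ratios, the replicate number or the slide as a block, each slide alone, the brightest probe, and each array left out with the filter applied to the rest.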

Additional observations from a re-analysis of the deposited data

How the results depend on the processing

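The receptor genes called numbered 29 (16.7%, against 29.8% of all genes), 20 of them up-regulated and 9 down-regulated, among 4789 genes called. Without a filter on dim probes, 2676 genes (10.9%) and 11 receptor genes (3.96%) were called. Of these 11, 4 rose (1.44%, against 2.26% of all genes). The receptor genes called higher numbered 13 with the 75th percentile of kept probes (7.47%, against 8.57% of all genes). They numbered 13 with the slide as a block (7.47%, against 9.27%). With detection required in only 1 group they also numbered 13 (6.31%, against 7.80%). That count holds *nhr-246* and *nhr-257*, which entered only through the pRJ-Fr.5 arrays, where they were high, so it is no support for an increase. Within slide 1, 10 receptor genes were called (5.75%, against 20.7% of all genes), of which 4 rose (2.30%, against 5.52%). With 1 array left out, the counts ranged from 2750 to 5511 for all genes, from 7 to 50 for receptor genes, from 3 to 38 for increases and from 4 to 12 for decreases, and the median change of receptor genes from 0.05 to 0.11. With the replicate number as a block, 11 receptor genes (6.32%) and 3199 genes in all (19.9%) were called. Of these 11, 5 rose (2.87%, against 4.51% of all genes). The labels do not say whether arrays with the same number were paired. Deviations from the group mean correlated at -0.24, 0.05 and -0.03 for arrays with the same number, and at -0.13 to 0.15 for other pairs. With 3 arrays a group, whose deviations are tied to each other, these correlations cannot decide whether a pairing existed. The other 65 of 91 recomputed summary values stayed within 1.5 times the count, or within the spread of the median between treated arrays. The closest 2 arrays differed by a median of 0.08, so that none was a copy of another.

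Of 817 recomputed changes of named receptor genes, 635 kept their direction and their side of the threshold, 119 lost the threshold, 7 gained it and 14, all from slide 2 alone, moved by more than the SD of the more variable group. The other 42 changed sign, and all of these belonged to 6 genes near 0 that did not pass the threshold in any alternative. *nhr-23* was -0.029 with the 75th percentile of kept probes, -0.00059 with detection in 1 group and with no filter, and -0.21 within slide 2, and it ranged from -0.056 to 0.072 with 1 array left out. *nhr-6* was -0.025 with the percentile of kept probes and -0.042 within slide 2, and ranged from -0.114 to 0.113. *nhr-40* was 0.018 with normexp, 0.034 with quantile normalization, 0.037 with the array median, 0.017 within slide 1 and 0.073 with the brightest probe, and ranged from -0.036 to 0.022. *nhr-57* was 0.020 with quantile normalization, 0.027 with the array median and 0.156 within slide 2, and ranged from -0.063 to 0.029. *nhr-86* was 0.029 with normexp, 0.038 with the array median and 0.084 within slide 1, and ranged from -0.048 to 0.055. *nhr-91* was 0.0015 with normexp, 0.0062 with quantile normalization, 0.019 with the array median, 0.070 with detection in 1 group and with no filter, and 0.388 within slide 2, and ranged from -0.240 to 0.148. The cause of these changes was not tested. Dim receptor genes are limited by signal over background. Control replicate 3 alone removed 33 receptor genes, and not all of these were dim. *nhr-177* gave -1.24 and -1.22 in control replicates 1 and 2 but -7.33 in control replicate 3.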
